A study of Mus musculus with 28 samples.

Results

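Microglia were compared with macrophages sorted from brains of WT mice, gene by gene. The comparison took 4 WT microglia libraries and 3 WT macrophage libraries at 5–6 months of age, which are 7 of the 28 libraries of the series. All 7 came from female Casp8flox/flox mice without Cre, so both cell types carried the floxed caspase-8 allele. The other 21 libraries were from WT mice at 11–12 months and from CReCOM mice (CD11cCre Casp8flox/flox) at both ages. CReCOM mice carry a Cre driven by the CD11c promoter to delete caspase-8. In their brains the paper reported this deletion in microglia, by DNA and by RNA, and not in infiltrating macrophages. Mice had been through behavioral testing, were perfused, and had their meninges removed before the brain was digested with enzymes and sorted. Macrophages were gated as CD11b+CD64+CD45hi and microglia as CD11b+CD64+CD45lo. Library names number the microglia 1, 2, 5 and 7 and the macrophages 1, 2 and 6, and values are listed below in that order. The number is read here as that of the mouse. The labels do not say outright that libraries of both cell types with the same number, 1 or 2, came from the same mouse, and fits with the mouse as a block assume it.

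Microglia are the resident macrophages of the brain parenchyma. They are seeded from the yolk sac before birth, renew themselves locally, and keep a gene program that depends on TGF-β and on signaling through the CSF-1 receptor. CD45hi myeloid cells of a perfused brain can include monocytes and their progeny, which come from bone marrow, and border macrophages of perivascular spaces and choroid plexus, which are marked by genes such as Mrc1, Lyve1 and Cd163. Both populations share the CD11b and CD64 surface proteins used in the gate.

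The libraries held 3961593 to 5413100 counts in microglia and 4045036 to 4635737 in macrophages. They were made from mRNA 3′ ends, so 1 transcript gives about 1 tag whatever its length, and levels are given as CPM, counts scaled to the same total in every library. A count of 3 equaled 0.554 to 0.757 CPM, and values at or under it are near the limit of detection. Macrophage libraries were made from 1 ng of RNA and microglia libraries from 2 ng, and the authors deposited the cell types as separate tables. Cell type therefore cannot be told apart from RNA input or from the table. Libraries of 1 cell type correlated with each other at 0.693 to 0.740 (Pearson's r of log2(CPM + 1) across genes), and libraries of different cell types at 0.331 to 0.365. The shares of mitochondrial genes (3.56 to 4.36% and 3.42 to 4.37%) and of the ribosomal RNA locus Gm42418 (4.32 to 9.51% and 5.46 to 9.40%) overlapped between microglia and macrophages.

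Of 7526 genes tested, 848 had a higher level in microglia (11.3%) and 859 in macrophages (11.4%), or 22.7% in all, at an adjusted p below 0.1 and more than a 1.5-fold change (edgeR's quasi-likelihood test). With the mouse as a block over the same 7 libraries, 405 and 458 genes were called. Log2 fold changes are microglia over macrophages with their standard errors. They are positive for genes higher in microglia, and the median over all genes was 0.11. A gene entered the test if log2 of its mean CPM + 1 was over 4 in microglia or over 5 in macrophages, so a gene near 0 in 1 cell type entered through the other, and counts of list members below describe the lists without testing them. Of the called genes with a name, 119 of 839 higher in microglia were at 0 in every macrophage library, and 119 of 853 higher in macrophages were at 0 in every microglia library. CPM did not overlap between the 7 libraries for 1195 genes higher in microglia (15.9%) and 1341 genes higher in macrophages (17.8%).

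**Figure D1:**
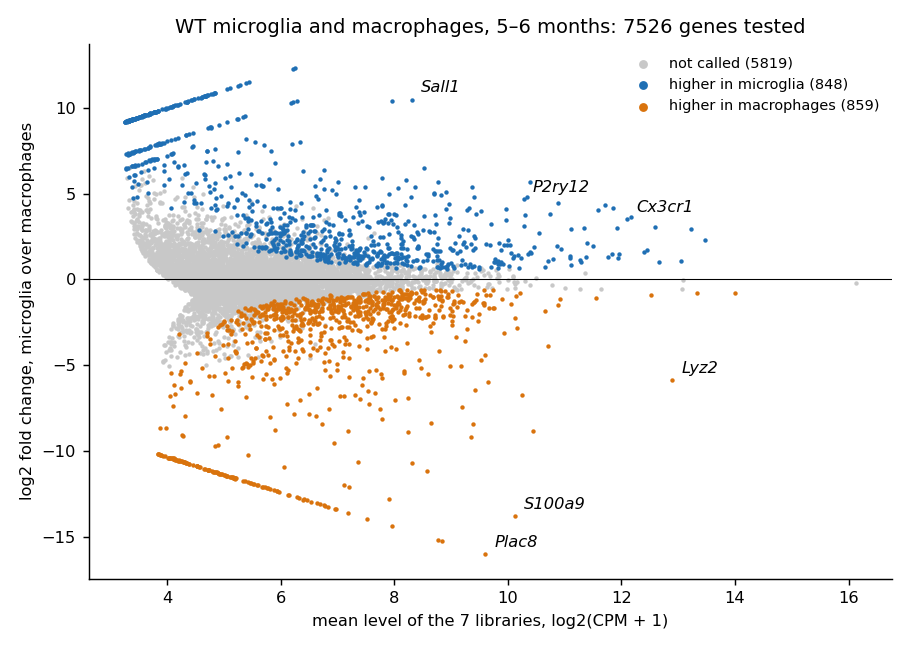
Log2 fold change of microglia over macrophages (y axis) against the mean level of the 7 libraries (x axis, log2(CPM + 1)) for the 7526 genes tested, 1 point a gene. Blue points are the 848 genes called higher in microglia, orange points the 859 called higher in macrophages, and grey points the rest, and the named genes Cx3cr1, P2ry12 and Sall1 lie far above 0 while Lyz2, Plac8 and S100a9 lie far below it. Straight rows of points are genes at 0 or near it in 1 cell type, whose fitted fold depends on the prior count.

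Transcripts of the proteins used in the gate were checked first. Ptprc, which encodes CD45, had 302, 341, 566 and 459.8 CPM in microglia and 2099.6, 1856 and 2180.0 CPM in macrophages (log2 fold change -2.23 ± 0.23, adjusted p = 7.3e-05). All 3 macrophage libraries lay above all 4 microglia libraries. Itgam, which encodes CD11b, had 671, 842, 898 and 731 CPM in microglia and 445, 567 and 494 CPM in macrophages, a smaller difference in the other direction (log2 fold change 0.70 ± 0.19, adjusted p = 0.027). Fcgr1, which encodes CD64, had 101, 138, 133 and 138 CPM in microglia and 31.6, 53.9 and 21.2 CPM in macrophages (adjusted p = 0.015). Cd68, a lysosomal membrane protein of phagocytes, had 357, 319, 345 and 241 CPM in microglia and 157, 164 and 194 CPM in macrophages (adjusted p = 0.025). For these 3 genes every microglia library was above every macrophage library, so macrophages were the lower group for 2 of the 3 gate proteins by transcript. Itgax, which encodes CD11c and whose promoter drives Cre in CReCOM mice, had 0.191, 1.51, 2.46 and 3.14 CPM in microglia and 182, 142 and 73.8 CPM in macrophages (log2 fold change -6.08 ± 0.85, adjusted p = 0.00062). Every macrophage library was above every microglia library for it, and 1 microglia library was under 3 counts. Casp8, the gene with the floxed allele, had 78.9, 40.4, 111 and 96.2 CPM in microglia and 71, 64.3 and 63.3 CPM in macrophages and did not pass the test (adjusted p = 0.68). Siglech, a surface lectin of microglia and plasmacytoid dendritic cells, had 731, 515, 642 and 531 CPM in microglia and 0.494, 76.4 and 67.1 CPM in macrophages (adjusted p = 0.05). Cd4 and Ly6g, also among the gate genes, did not pass the filter on low values. With the mouse as a block, the calls of Itgam, Fcgr1, Cd68 and Siglech were lost (adjusted p = 0.15 to 0.57).

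Promoter sequences are shown for 7 of the genes described below, as examples of motifs in genes that differed strongly. C1qc and Cx3cr1 were high in microglia, S100a8, S100a9, Ngp and Ifitm2 were high in macrophages, and Jun was among the most abundant genes of microglia. Each line gives the 250 bases before the start of the gene from RefSeq (GRCm38.p6), 5′ to 3′ in the direction of the gene, with the motif letters in capitals. In C1qc and S100a8 the capitals are the PU.1-type ETS motif GAGGAAGT, read on the opposite strand.
C1qc (chr4:136892915-136893164, minus strand): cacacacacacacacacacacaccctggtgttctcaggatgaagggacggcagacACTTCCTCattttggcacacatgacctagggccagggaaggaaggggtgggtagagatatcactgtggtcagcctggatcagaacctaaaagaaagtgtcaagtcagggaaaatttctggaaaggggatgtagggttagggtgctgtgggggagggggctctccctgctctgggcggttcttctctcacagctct
S100a8 (chr3:90668821-90669070, plus strand): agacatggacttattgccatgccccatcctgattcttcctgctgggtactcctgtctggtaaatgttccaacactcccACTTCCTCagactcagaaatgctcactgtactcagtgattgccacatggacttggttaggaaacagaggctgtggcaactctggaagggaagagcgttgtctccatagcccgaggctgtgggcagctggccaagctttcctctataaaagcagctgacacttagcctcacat
PU.1 is an ETS factor that macrophages and microglia both depend on. The same letters stand in a gene high in microglia and in a gene nearly absent from them. In Cx3cr1 and Jun the capitals are a loose form of the MEF2 motif, CTA and TAG with any 4 bases between them. In Jun these 4 bases are all T, and in Cx3cr1 they include a G. The loose form can also match letters that are not a MEF2 site. MEF2 factors are part of the transcription factor set of microglia. The same loose form also stood before Plac8, Rara and Tln1, which were higher in macrophages.
Cx3cr1 (chr9:120068297-120068546, minus strand): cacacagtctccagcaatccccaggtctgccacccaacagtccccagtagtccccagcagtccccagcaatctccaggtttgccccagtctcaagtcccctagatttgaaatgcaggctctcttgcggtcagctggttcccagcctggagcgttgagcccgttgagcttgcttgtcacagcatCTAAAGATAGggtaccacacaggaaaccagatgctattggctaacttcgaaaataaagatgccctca
Jun (chr4:95052223-95052472, minus strand): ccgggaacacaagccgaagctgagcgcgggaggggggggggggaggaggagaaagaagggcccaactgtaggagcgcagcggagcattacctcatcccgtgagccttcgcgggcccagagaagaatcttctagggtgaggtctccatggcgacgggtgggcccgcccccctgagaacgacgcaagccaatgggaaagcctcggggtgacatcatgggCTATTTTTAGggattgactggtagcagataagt
In Ngp, which has it on each strand, and in S100a9 the capitals are the C/EBP motif TTGCNNAA. C/EBP factors drive genes of granulocytes and monocytes. The motif also stood before P2ry12, Siglech, Ctsl and Tgfbr2, which were higher in microglia.
Ngp (chr9:110419558-110419807, plus strand): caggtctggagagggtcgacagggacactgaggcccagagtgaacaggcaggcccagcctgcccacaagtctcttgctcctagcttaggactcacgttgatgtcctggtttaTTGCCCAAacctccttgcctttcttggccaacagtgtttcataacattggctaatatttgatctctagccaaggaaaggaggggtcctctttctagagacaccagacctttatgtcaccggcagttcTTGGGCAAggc
S100a9 (chr3:90695722-90695971, minus strand): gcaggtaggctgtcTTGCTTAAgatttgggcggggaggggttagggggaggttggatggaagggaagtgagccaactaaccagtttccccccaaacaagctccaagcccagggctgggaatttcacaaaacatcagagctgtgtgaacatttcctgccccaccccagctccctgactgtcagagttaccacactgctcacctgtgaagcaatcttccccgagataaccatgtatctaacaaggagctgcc
In Ifitm2 the capitals are the interferon response motif, a pair of GAAA with any 2 bases between them, which IRF and STAT factors bind.
Ifitm2 (chr7:140955962-140956211, minus strand): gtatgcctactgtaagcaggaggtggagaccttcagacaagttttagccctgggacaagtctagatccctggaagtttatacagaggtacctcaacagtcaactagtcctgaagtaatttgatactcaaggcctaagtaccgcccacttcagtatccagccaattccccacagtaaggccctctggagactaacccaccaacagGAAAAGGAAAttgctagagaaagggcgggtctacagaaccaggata

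Over the whole window of 250 bases before to 50 bases after the start, searched on both strands, the PU.1-type motif stood in 45 of 898 windows of genes higher in microglia (5.01%) and in 47 of 835 windows of genes higher in macrophages (5.63%), against 3.53% of the windows of all genes tested and 3.20% of all promoter windows. The loose form of the MEF2 motif stood in 4.12% and 1.92% of these windows, against 2.91% of genes tested and 3.69% of all promoter windows. The C/EBP motif stood in 8.46% and 12.1%, against 8.60% and 10.8%. The interferon response motif stood in 2.78% and 5.15%, against 3.30% and 3.44%. The AP-1 motif TGANTCA stood in 5.12% and 7.19%, against 5.00% and 7.81%. The SMAD motif CAGACAG stood in 6.79% and 6.83%, against 6.16% and 7.73%, and the CRE motif TGACGTCA in 2.67% and 2.04%, against 3.12% and 1.79%. The share before genes higher in macrophages was above that of genes tested but below that of all windows for AP-1. Windows on chromosome 18 were left out of every share, so tested genes there, Egr1, Csf1r and Cd74 among them, had none. RefSeq windows elsewhere were used for 5768 of 7454 tested genes with a name, and a gene with several start sites has several windows. These shares describe letters in a window, and no test was run on them.

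The genes that mark microglia in the adult brain were higher in the microglia libraries in nearly all cases. Of 40 homeostatic microglia genes listed, 39 were tested and 37 were called higher in microglia (32 with the block), and none was called higher in macrophages. Their median log2 fold change was 4.11. Their summed level was 86104 to 89683 CPM in microglia and 10292 to 11643 CPM in macrophages. The largest parts of the macrophage sum were Ctss, Cst3, Jun and Csf1r, which had 945 to 2874 CPM in the macrophage libraries. Cx3cr1, the fractalkine receptor, had 7774, 6807, 7100.0 and 7036 CPM in microglia and 632, 756 and 598 CPM in macrophages (log2 fold change 3.50 ± 0.14, adjusted p = 7.7e-08). Its lowest microglia library was far above its highest macrophage library. P2ry12 (chr3:59216272-59262871), the ADP receptor that guides microglial processes toward injury, had 1948, 1958, 2422 and 2102 CPM in microglia and 58.8, 121 and 72.3 CPM in macrophages (log2 fold change 4.70 ± 0.29, adjusted p = 2.2e-06). Sparc, a secreted matrix protein, had 2971, 3359.8, 2775 and 3668 CPM in microglia and 144, 134 and 182 CPM in macrophages (log2 fold change 4.44 ± 0.20, adjusted p = 2.1e-07). Macrophage libraries were thus low but not at 0 for these genes. Csf1r, the receptor that both cell types need to survive, differed least among the abundant members, with 3255, 2624, 2825 and 2998 CPM in microglia and 1330.3, 1301 and 945 CPM in macrophages (log2 fold change 1.36 ± 0.15, adjusted p = 0.00016). Selplg, the ligand of P-selectin, had 1964, 1967, 2072 and 1523 CPM in microglia and 899, 573 and 561 CPM in macrophages (log2 fold change 1.54 ± 0.19, adjusted p = 0.00031).

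Other members of the same list were at or under 3 counts in some macrophage libraries or uneven between them. Sall1 (chr8:89027235-89044162), a zinc finger repressor that maintains microglial identity, had 543, 737, 449.7 and 492 CPM in microglia and 0, 0.863 and 0.225 CPM in macrophages (log2 fold change 10.47 ± 0.63, adjusted p = 1.8e-06). Among called genes without overlap, with at least 100 CPM in microglia and over 3 counts in a macrophage library, it had the largest fitted fold. Slc2a5, the fructose transporter GLUT5, had 408, 301, 372 and 439 CPM in microglia and 12.6, 7.77 and 0 CPM in macrophages (log2 fold change 5.89 ± 1.00, adjusted p = 0.0032). Mertk, a receptor for apoptotic cells, had 893, 679, 818 and 923 CPM in microglia and 3.21, 57.8 and 12.8 CPM in macrophages (log2 fold change 5.11 ± 0.88, adjusted p = 0.0043). Fcrls, an Fc receptor-like protein, had 914, 746, 713 and 851 CPM in microglia and 112, 7.12 and 29.5 CPM in macrophages (log2 fold change 4.11 ± 0.78, adjusted p = 0.0067). The macrophage libraries differed widely from each other in these 2 genes, and the microglia libraries did not. The block took away the calls of Mertk and Fcrls (adjusted p = 0.26 to 0.4). Without macrophage mouse 1, the log2 fold changes were 5.50 for Fcrls and 6.63 for Slc2a5. Without macrophage mouse 2, the log2 fold changes were 6.73 for Mertk and 11.97 for Sall1.

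**Figure D2:**
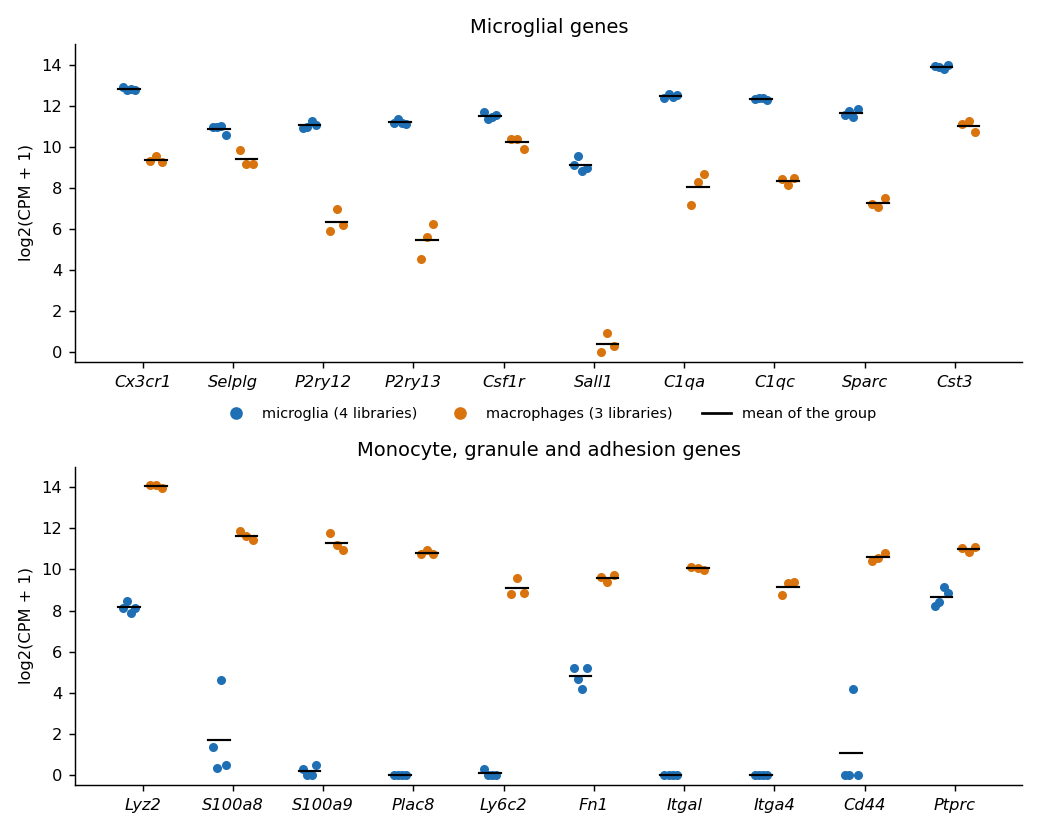
Level of 10 microglial genes and 10 monocyte, granule and adhesion genes in each library (y axis, log2(CPM + 1)), with 1 blue point for each of the 4 microglia libraries, 1 orange point for each of the 3 macrophage libraries and a bar at the mean of each group. In all 20 genes shown, which are called genes chosen to illustrate these lists, the points of the cell types do not overlap.

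The macrophage libraries carried monocyte genes and lacked several genes of border macrophages. Of 19 monocyte genes listed, 18 were tested and 17 were higher in macrophages (13 with the block), and none was higher in microglia. The median log2 fold change of the tested genes was -11.21 as fitted and -7.67 with the genes at 0 in microglia set to their lower bound. Their summed level was 811 to 2882 CPM in microglia and 12085 to 13942 CPM in macrophages, and in microglia most of that sum was Nr4a1. Plac8 (chr5:100553725-100572245), a small cysteine-rich protein of monocytes, had 1718, 1996 and 1713 CPM in macrophages and 0 CPM in all 4 libraries in microglia, so it was at least 2389-fold higher in macrophages against a floor of 3 counts per library. Ly6c2, the surface antigen of inflammatory monocytes, had 448, 773 and 456 CPM in macrophages and 0.191, 0, 0 and 0 CPM in microglia. The pooled counts give a ratio of 11242 (exact 95% counting interval 2017 to 444099). Fn1, fibronectin, had 799, 662 and 849 CPM in macrophages and 35.1, 24.2, 16.9 and 35.7 CPM in microglia (log2 fold change -4.72 ± 0.31, adjusted p = 3.3e-06). Ace, which marks patrolling Ly6C-low monocytes, had 459.8, 406 and 409.9 CPM in macrophages. Treml4, another marker of these cells, had 142, 193 and 217 CPM. Both were at 0 in all 4 microglia libraries. Genes of both monocyte types were thus present in all 3 macrophage libraries. Ccr2, the receptor for CCL2, had 337, 527 and 400.5 CPM in macrophages and 18.1, 0, 0 and 20.9 CPM in microglia (log2 fold change -5.36 ± 1.39, adjusted p = 0.03). Ccr2 was not called with the mouse as a block (adjusted p = 0.43). Without microglia mouse 7, the log2 fold change was -6.12 for Ccr2.

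Of 16 border macrophage genes listed, 4 passed the filter, of which 1 was higher in microglia and 2 in macrophages, with a median log2 fold change of -1.77. Lyve1 was at 0 in all 3 macrophage libraries and Siglec1 in all 7 libraries. Pf4 was at or below 0.494 CPM in macrophages, and Cd163 had 0.247, 19.8 and 3.83 CPM there. Levels of these 4 markers were thus at 0 or below 20 CPM in macrophages. Mrc1, the mannose receptor, was present in both cell types, with 33.6, 43.9, 100.1 and 44.7 CPM in microglia and 122, 35.6 and 30.2 CPM in macrophages (adjusted p = 0.96). Mrc1 did not pass the test and its groups overlapped. Mgl2, a galactose-type lectin, had 187, 172 and 267 CPM in macrophages and 1.34, 2.27, 0 and 0 CPM in microglia (log2 fold change -7.84 ± 1.04, adjusted p = 0.00046). Clec10a, its close relative, had 110.0, 129 and 85.8 CPM in macrophages and 0, 7.32, 15.2 and 15 CPM in microglia (adjusted p = 0.054). Both lectins were higher in macrophages. Stab1, a scavenger receptor, had 142, 111, 117 and 110.5 CPM in microglia and 0.742, 3.67 and 11.9 CPM in macrophages (log2 fold change 4.49 ± 0.84, adjusted p = 0.0038). The summed level of the list was 195 to 276 CPM in microglia and 398 to 432 CPM in macrophages. In bulk samples, fewer cells of a type and less RNA per cell cannot be told apart. Clec10a was not called without macrophage mice 1 or 2 or microglia mouse 2 (adjusted p = 0.102 to 0.13). Without macrophage mouse 6, the log2 fold change was 5.79 for Stab1. Without microglia mouse 2, the log2 fold change was -8.80 for Mgl2.

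Markers of other blood cells were also higher in the macrophage libraries. Of 22 neutrophil genes, 15 were tested and 14 were higher in macrophages (11 with the block), with a summed level of 92.6 to 158 CPM in microglia and 7462 to 11598 CPM in macrophages and 13 of the 22 at 0 in all microglia libraries. S100a9, a subunit of calprotectin, had 3515, 2357 and 1967 CPM in macrophages and 0.191, 0, 0 and 0.369 CPM in microglia, a ratio of pooled counts of 17115 (exact 95% counting interval 5856 to 82996). S100a8, its partner, had 3798, 3126 and 2737 CPM in macrophages and 1.53, 0.252, 23.9 and 0.369 CPM in microglia (log2 fold change -8.86 ± 1.40, adjusted p = 0.0032), and the highest microglia library was mouse 5. Ngp, neutrophilic granule protein, had 967, 901 and 815 CPM in macrophages and 0.191, 0.252, 0.379 and 0.554 CPM in microglia, a ratio of pooled counts of 2534 (exact 95% counting interval 1229.7 to 6305). Ly6g and Cxcr2, surface markers on the list, did not pass the filter. In macrophages Ly6g was at 0, 0 and 10.6 CPM and Cxcr2 at 24.2, 34.9 and 13.96 CPM. Of 25 T and NK cell genes, 15 were tested and 14 were higher in macrophages (10 with the block), with a summed level of 3.03 to 23.9 CPM in microglia and 2845 to 3377 CPM in macrophages and 20 of the 25 at 0 in all microglia libraries. Gzma, a granzyme of NK cells, had 1249.9, 875 and 916 CPM in macrophages and 0 CPM in all 4 libraries in microglia and was at least 1338-fold higher in macrophages. Nkg7 had 307, 262 and 293 CPM and Klrb1c, which encodes NK1.1, 138, 132 and 101 CPM, and both were at 0 in microglia. Lck, a kinase of T and NK cells, had 58.6, 62.1 and 154 CPM and was at 0 in microglia (adjusted p = 0.00064). Among T cell receptor genes, Trbc2 had 0.494, 29.3 and 76.8 CPM, Trac had 23.7, 5.82 and 10.1 CPM, Cd3d had 10.1, 4.1 and 5.85 CPM and Cd3g had 0.742, 0 and 23.4 CPM in macrophages, while Cd3e was at or below 2.48 CPM and Cd8a, a coreceptor, at 0. All 6 were at 0 in microglia, and the macrophage libraries were uneven for them. Of 12 B and plasma cell genes, 3 were tested and 2 were higher in macrophages, with a summed level of 336 to 549 CPM in microglia and 343 to 2214 CPM in macrophages. Igkc, the immunoglobulin κ constant region, had 283, 1137 and 78.3 CPM in macrophages and 1.91, 0.252, 7.77 and 0.185 CPM in microglia (log2 fold change -7.54 ± 1.33, adjusted p = 0.0049). Jchain, which joins IgA and IgM, had 57.4, 236 and 0 CPM in macrophages and 0, 0.252, 0 and 0 CPM in microglia (adjusted p = 0.0071). Macrophages of mouse 2 were highest for both, and the Jchain groups overlapped. The tested neutrophil genes had a median log2 fold change of -11.15 as fitted and -7.57 at their bounds, and the T and NK cell genes -11.11 and -6.92. In flow cytometry the study set neutrophils apart by Ly6G and NK cells by NK1.1. The part of these cells in the macrophage results was not tested. In the fit with the mouse block, Trbc2 was no longer called (adjusted p = 0.41). Without macrophage mouse 2, the log2 fold change was -6.03 for Igkc. Without microglia mouse 5, the log2 fold changes were -9.23 for Igkc and -12.02 for S100a8.

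**Figure D3:**
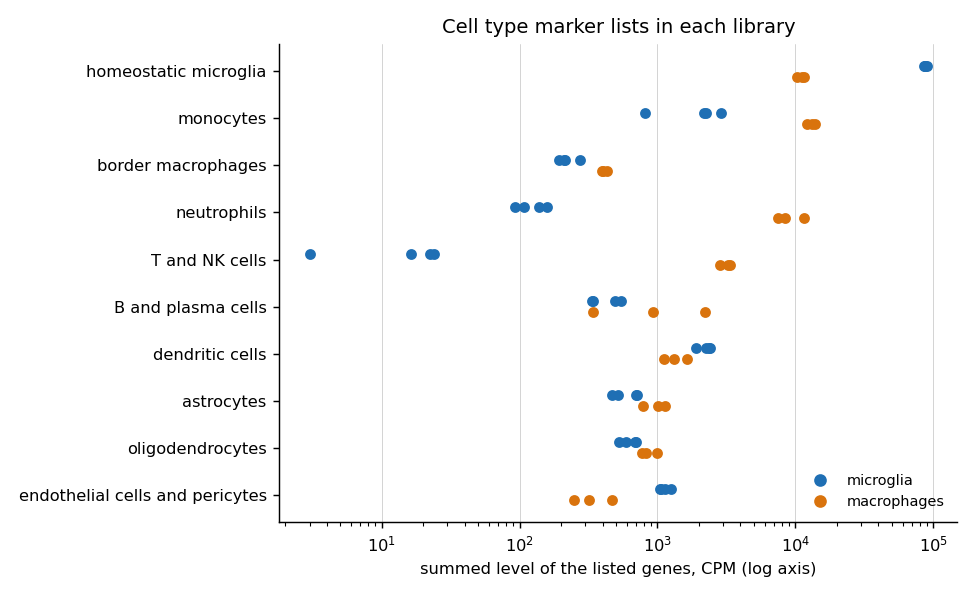
Summed level of 10 cell type marker lists in each library (x axis, CPM on a log axis), with blue points for the 4 microglia libraries and orange points for the 3 macrophage libraries. Homeostatic microglia genes were 86104 to 89683 CPM in microglia, and neutrophil genes were 7462 to 11598 CPM and T and NK cell genes 2845 to 3377 CPM in macrophages.

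Markers of other brain cells were found in both cell types, and some were called. Of 13 tested endothelial and pericyte genes (16 listed), 5 were higher in microglia (2 with the block) and none was higher in macrophages, with a summed level of 1050.0 to 1247 CPM in microglia and 247 to 469 CPM in macrophages and a median log2 fold change of 1.65. Bsg, basigin, had 193, 250.4, 224 and 256 CPM in microglia and 26.5, 36.7 and 50.4 CPM in macrophages (log2 fold change 2.66 ± 0.36, adjusted p = 0.00055). Igfbp7 had 61.5, 25.2, 82.5 and 56 CPM in microglia and was at 0 in macrophages (at least 75.9-fold). Of 6 tested neuronal genes (12 listed), 2 were higher in microglia (1 with the block), with a summed level of 949 to 1534 CPM in microglia and 299.6 to 375 CPM in macrophages and a median of 1.87. Meg3, a long noncoding RNA abundant in neurons, had 1320.0, 1004, 685 and 942 CPM in microglia and 301, 229 and 343 CPM in macrophages (adjusted p = 0.00055). Nrgn, neurogranin, had 58.6, 66.4, 88.9 and 62.4 CPM in microglia and 0.494, 12.5 and 4.95 CPM in macrophages (log2 fold change 3.56 ± 0.98, adjusted p = 0.03). Of 6 tested astrocyte genes (16 listed), 4 were higher in microglia (0 with the block) and 1, Apoe, was higher in macrophages (also with the block), with a median of 2.29 and a summed level of 470.2 to 714 CPM in microglia and 780.3 to 1143 CPM in macrophages. The 4 genes higher in microglia had 31.7 to 90.9 CPM in their highest microglia library. Gfap and Aqp4, also listed, did not pass the filter and were at or below 8.83 CPM in every library. Of 6 tested oligodendrocyte genes (12 listed), 1 was called, with a median of 0.60 and a summed level of 529.6 to 705 CPM in microglia and 779.6 to 994 CPM in macrophages. This was Mbp, myelin basic protein, with 540.4, 432 and 426 CPM in macrophages and 63, 15.7, 46.6 and 49.1 CPM in microglia (log2 fold change -3.36 ± 0.41, adjusted p = 0.00028). Mog was at 0 in all 7 libraries. The 1 tested erythroid gene of 7 listed, Hbb-bs, had 115, 1.77, 6.83 and 23.3 CPM in microglia and 1.98, 0.431 and 15.8 CPM in macrophages (adjusted p = 0.35), and the list summed to 18 to 146 CPM in microglia and 2.22 to 31.1 CPM in macrophages. Of 8 tested dendritic cell genes (14 listed), 2 were higher in each cell type, with a summed level of 1903 to 2391 CPM in microglia and 1115 to 1643 CPM in macrophages and a median of -0.24 (0.20 without macrophage mouse 1). Cd209a, a C-type lectin of monocyte-derived dendritic cells, had 84.8, 66.7 and 90.3 CPM in macrophages and was at 0 in microglia. Fscn1, the actin-bundling fascin, had 512, 469.8, 430.2 and 327 CPM in microglia and 0.247, 0.647 and 0 CPM in macrophages (adjusted p = 1.4e-06). The members called higher in microglia were Fscn1 and Siglech, and Siglech is also on the homeostatic microglia list. Flt3, Zbtb46, Xcr1, Clec9a and Ccr9, also listed for dendritic cells, did not pass the filter. With the mouse as a block, the call of Nrgn was lost (adjusted p = 0.17). Without macrophage mouse 2, the log2 fold change was 4.69 for Nrgn.

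Genes for sensing extracellular nucleotides were mostly higher in microglia. Of 18 receptors and enzymes for extracellular nucleotides, 8 were tested, 6 were higher in microglia and 1 was higher in macrophages, with a median log2 fold change of 2.82 and a summed level of 4985 to 5563 CPM in microglia and 401 to 536 CPM in macrophages. With the block, 3 were higher in microglia and none in macrophages. P2ry13, an ADP receptor next to P2ry12 on chromosome 3, had 2239.8, 2602, 2252 and 2176 CPM in microglia and 21.8, 46.8 and 73.8 CPM in macrophages (log2 fold change 5.65 ± 0.41, adjusted p = 8.1e-06). P2ry6, the UDP receptor that triggers phagocytosis, had 122, 113, 177 and 114 CPM in microglia and 20.3, 11.6 and 27.5 CPM in macrophages (log2 fold change 2.79 ± 0.48, adjusted p = 0.0024). For both receptors every microglia library was above every macrophage library. Entpd1 (CD39), which breaks down ATP and ADP, had 207, 238, 239.7 and 168 CPM in microglia and 64, 85 and 43 CPM in macrophages (adjusted p = 0.0047). P2rx7, the ATP-gated channel, had 215, 211, 245 and 246 CPM in microglia and 70.2, 1.73 and 29.5 CPM in macrophages (log2 fold change 2.85 ± 0.85, adjusted p = 0.043). The adenosine receptors went in opposite directions. Adora3 had 203, 173, 195 and 134 CPM in microglia and 0, 9.28 and 0 CPM in macrophages (log2 fold change 5.84 ± 1.35, adjusted p = 0.014). Adora2a had 0.742, 57.4 and 66 CPM in macrophages and 0, 2.02, 0 and 0 CPM in microglia (log2 fold change -6.32 ± 2.17, adjusted p = 0.073). The block took away the calls of Entpd1, P2rx7, Adora3 and Adora2a (adjusted p = 0.11 to 0.47). Adora2a was not called without macrophage mouse 2 or microglia mice 1, 5 or 7 (adjusted p = 0.13 to 0.14). P2rx7 was not called without macrophage mouse 6 (adjusted p = 0.105). Without macrophage mouse 1, the log2 fold change was 3.91 for P2rx7. Without macrophage mouse 2, Adora3 was at 0 in the remaining macrophage libraries. Without microglia mouse 2, Adora2a was at 0 in the remaining microglia libraries.

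TGF-β signaling genes were higher in microglia where they were called. Of 25 genes listed, 18 were tested, 10 were higher in microglia (4 with the block) and none was higher in macrophages, with a median log2 fold change of 1.80 and a summed level of 3562 to 3977 CPM in microglia and 1309 to 1609 CPM in macrophages. Tgfbr2, the receptor that binds the ligand, had 398, 524, 439 and 342 CPM in microglia and 148, 66.4 and 68.7 CPM in macrophages (log2 fold change 2.24 ± 0.33, adjusted p = 0.00093). Tgfbr1, its signaling partner, had 660.2, 630.0, 668 and 704 CPM in microglia and 239.8, 103 and 61.2 CPM in macrophages (log2 fold change 2.39 ± 0.39, adjusted p = 0.0018). The groups did not overlap for either receptor. Skil, a repressor that the pathway induces, had 617, 505, 707 and 719 CPM in microglia and 163, 155 and 168 CPM in macrophages (log2 fold change 2.04 ± 0.22, adjusted p = 9.9e-05). Ski, a repressor bound by SMADs, had 409, 318, 384 and 342 CPM in microglia and 108, 195 and 79.7 CPM in macrophages (adjusted p = 0.0074). Feedback regulators thus stood with the receptors. Pmepa1, a target gene of the pathway that dampens it, had 418, 268, 462 and 484 CPM in microglia and 14.8, 22.4 and 3.83 CPM in macrophages (log2 fold change 4.96 ± 0.57, adjusted p = 0.00018). Itgav, the αV integrin subunit that activates latent TGF-β, had 67.8, 50.7, 62.2 and 75 CPM in microglia and 6.67, 11.6 and 12.4 CPM in macrophages (adjusted p = 0.018). Ski and Itgav were not called with the mouse as a block (adjusted p = 0.11 to 0.27). Without macrophage mouse 1, the log2 fold change was 3.06 for Tgfbr1. Without macrophage mouse 2, the log2 fold change was 5.55 for Pmepa1.

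Growth factor and cytokine receptors were split. Of 27 listed, 20 were tested, 6 were higher in microglia and 4 in macrophages, with a median of 0.54 and a summed level of 6396 to 7269 CPM in microglia and 5581 to 6424 CPM in macrophages. Csf1, a ligand of CSF1R, had 285, 316, 297 and 271 CPM in microglia and 33.4, 20.5 and 5.85 CPM in macrophages (log2 fold change 3.95 ± 0.53, adjusted p = 0.00049). Tnfrsf1a, a TNF receptor, had 904, 936 and 690.4 CPM in macrophages and 266, 162, 115 and 164 CPM in microglia (log2 fold change -2.20 ± 0.27, adjusted p = 0.00029). Tnfrsf1b, the other TNF receptor, had 764, 639 and 606 CPM in macrophages and 223, 255, 244 and 198 CPM in microglia (log2 fold change -1.48 ± 0.19, adjusted p = 0.00038). TNF receptors were thus higher in macrophages, while Csf1 was higher in microglia. Il17ra, the interleukin-17 receptor, had 788, 749.6 and 562 CPM in macrophages and 112, 149.9, 96.1 and 255 CPM in microglia (log2 fold change -2.12 ± 0.33, adjusted p = 0.0015). Csf2rb, the common β chain of the GM-CSF receptor, had 369, 434 and 481 CPM in macrophages and 154, 159.8, 120.2 and 171 CPM in microglia (log2 fold change -1.45 ± 0.24, adjusted p = 0.0019). Il6ra, the interleukin-6 receptor, had 529, 514, 507 and 385 CPM in microglia and 589, 613 and 332 CPM in macrophages and did not pass the test (adjusted p = 0.97).

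Receptors for chemokines and other chemoattractants were called in both directions. Of 25 listed, 16 were tested, 7 were higher in microglia (6 with the block) and 6 in macrophages (3 with the block), with a median of 0.91 and a summed level of 9599 to 10731 CPM in microglia and 2184 to 2496 CPM in macrophages. C3ar1, the receptor for complement C3a, had 481, 379.6, 385 and 438 CPM in microglia and 43.3, 61 and 51.8 CPM in macrophages (log2 fold change 3.07 ± 0.27, adjusted p = 2.6e-05). Ptafr, the receptor for platelet-activating factor, had 443, 395, 396 and 285 CPM in microglia and 110.3, 219 and 145 CPM in macrophages (log2 fold change 1.31 ± 0.30, adjusted p = 0.011). These receptors and Cx3cr1 were higher in every microglia library than in any macrophage library. The homing receptor Cxcr4 had 335, 196 and 220.2 CPM in macrophages. Cxcr6, the receptor for CXCL16, had 89.5, 45.7 and 102 CPM. Ltb4r1, the leukotriene B4 receptor, had 73.2, 50.05 and 38 CPM. These 3 genes were at 0 in every microglia library. Of 25 chemokines, 13 were tested, 3 were higher in microglia and 5 in macrophages, with a median of 0.58 and a summed level of 2917 to 4177 CPM in microglia and 3405 to 4792 CPM in macrophages. Ccl3, a ligand of CCR1, had 1803, 1309, 1591 and 1031 CPM in microglia and 389, 411 and 299 CPM in macrophages (log2 fold change 2.02 ± 0.22, adjusted p = 0.00011). Ccl4, its neighbor in the genome, had 1248, 1165, 1346 and 986 CPM in microglia and 1157, 798 and 530.1 CPM in macrophages and did not pass the test (adjusted p = 0.12). Ccl6, another CCR1 ligand, had 1352, 1248 and 1118 CPM in macrophages and 214, 149, 151 and 123 CPM in microglia (log2 fold change -2.90 ± 0.21, adjusted p = 6.8e-06). The CCR1 ligands thus differed in direction. Ccl9 had 251, 341 and 171 CPM in macrophages and 32.3, 63.1, 70.3 and 50.6 CPM in microglia (log2 fold change -2.17 ± 0.39, adjusted p = 0.0029). Cxcl2, a neutrophil attractant, had 674, 532 and 277 CPM in macrophages and 156, 132, 157 and 148 CPM in microglia (log2 fold change -1.67 ± 0.29, adjusted p = 0.0024).

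Complement genes were divided between C1q, high in microglia, and C3 and properdin, high in macrophages. Of 25 complement genes, 13 were tested, 7 were higher in microglia and 3 in macrophages, with a median of 1.57 and a summed level of 14435 to 15321 CPM in microglia and 1934 to 2005 CPM in macrophages. C1qa, C1qb and C1qc, the 3 chains of the recognition molecule, lie side by side on chromosome 4. C1qa had 5289.5, 6001, 5472 and 5787 CPM in microglia and 141, 310.2 and 400.0 CPM in macrophages (log2 fold change 4.36 ± 0.34, adjusted p = 1.9e-05). C1qb had 2366, 1809, 2583 and 2039 CPM in microglia and 90.7, 63 and 91.2 CPM in macrophages (log2 fold change 4.81 ± 0.22, adjusted p = 2.7e-07). C1qc had 5168, 5246, 5216 and 5004 CPM in microglia and 345, 277 and 349.8 CPM in macrophages (log2 fold change 4.05 ± 0.14, adjusted p = 4.4e-08). The 3 genes thus differed 19.9-fold, 26.9-fold and 15.9-fold in mean level. C3, the central component, had 268, 192 and 156 CPM in macrophages and 0, 0, 7.39 and 0 CPM in microglia (log2 fold change -6.68 ± 1.504, adjusted p = 0.014). Cfp, properdin, which stabilizes the alternative pathway convertase, had 84.5, 82.4 and 85.8 CPM in macrophages and 0, 5.3, 0 and 0 CPM in microglia (log2 fold change -5.96 ± 1.67, adjusted p = 0.032). In the fit with the mouse block, Cfp was no longer called (adjusted p = 0.14). Without microglia mouse 2, Cfp was at 0 in the remaining microglia libraries. Without microglia mouse 5, C3 was at 0 in the remaining microglia libraries.

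Genes of MHC class II presentation were mostly higher in macrophages. Of 15 genes of the MHC class II pathway, 13 were tested, 8 were higher in macrophages (4 with the block) and 2 were higher in microglia, with a median log2 fold change of -1.46. The summed level was 8220.2 to 9697 CPM in microglia and 9820.0 to 13624 CPM in macrophages, and most of the sum in microglia was Ctss. The class II chain H2-Aa had 1926, 1846 and 2196 CPM in macrophages and 173, 171, 338 and 212 CPM in microglia (log2 fold change -3.09 ± 0.25, adjusted p = 1.9e-05). H2-Ab1, its partner, had 1407, 1012 and 1397 CPM in macrophages and 93.6, 95.9, 99.4 and 121 CPM in microglia (log2 fold change -3.57 ± 0.21, adjusted p = 1.4e-06). H2-Eb1, of the other class II heterodimer, had 3899.8, 2849 and 3958 CPM in macrophages and 201, 118, 408 and 219 CPM in microglia (log2 fold change -3.85 ± 0.36, adjusted p = 6.1e-05). All 3 chains were higher in every macrophage library than in any microglia library. Cd74, the invariant chain that escorts them, had 1887, 1005 and 2045 CPM in macrophages and 67, 50.7, 63.9 and 58 CPM in microglia (log2 fold change -4.72 ± 0.26, adjusted p = 1.1e-06). Ciita, the coactivator that switches these genes on, was at 0 in all microglia libraries and had 20.3, 12.3 and 88.9 CPM in macrophages (adjusted p = 0.011). The other direction held for 2 members. Ctss, the protease that degrades the invariant chain, had 7560.5, 7233, 8105 and 6947 CPM in microglia and 2641, 2199 and 2874 CPM in macrophages (log2 fold change 1.59 ± 0.13, adjusted p = 1.5e-05). Cd86, a costimulatory ligand, had 182, 111, 146 and 152 CPM in microglia and 34.9, 100.3 and 62.8 CPM in macrophages (adjusted p = 0.084). With the mouse as a block, the calls of Ciita and Cd86 were lost (adjusted p = 0.25 to 0.41). Cd86 was not called without macrophage mice 1 or 6 or microglia mice 1, 2, 5 or 7 (adjusted p = 0.11 to 0.19).

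MHC class I genes differed by smaller folds. Of 20 genes, 16 were tested, 6 were higher in macrophages (3 with the block) and 2 in microglia, with a median of -0.74 and a summed level of 7053 to 8552 CPM in microglia and 11905 to 13125 CPM in macrophages. H2-D1 had 3202, 2558 and 2807 CPM in macrophages and 1322, 1231, 1438 and 929 CPM in microglia (log2 fold change -1.16 ± 0.16, adjusted p = 0.00057). H2-K1 had 4140.4, 3954 and 3922 CPM in macrophages and 2730.2, 2616, 2578 and 2376 CPM in microglia (log2 fold change -0.58 ± 0.11, adjusted p = 0.0035). B2m, the light chain of all of them, had 3365, 3262 and 2572 CPM in macrophages and 2249, 1932, 2255 and 1692 CPM in microglia (log2 fold change -0.54 ± 0.14, adjusted p = 0.026). H2-K1 and B2m did not reach a fitted fold of 1.5 and were not called, though their groups did not overlap. Pdia3, a chaperone of the peptide-loading complex, had 522, 554, 529.8 and 598 CPM in microglia and 253, 224 and 323 CPM in macrophages (log2 fold change 1.10 ± 0.21, adjusted p = 0.0042). Class I heavy chains are near-identical copies, and how reads were split between them is uncertain.

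Interferon-stimulated genes were higher in macrophages or not called. Of 46 listed, 32 were tested, 15 were higher in macrophages (10 with the block) and none was higher in microglia, with a median log2 fold change of -1.79 and a summed level of 1380.2 to 1582 CPM in microglia and 6925 to 7906 CPM in macrophages. Ifitm3, a membrane protein that blocks viral entry, had 2788, 3015 and 2627 CPM in macrophages and 21, 23, 57.8 and 0 CPM in microglia (log2 fold change -6.73 ± 1.19, adjusted p = 0.0056). Ifitm2, whose promoter is shown above, had 261, 246 and 234 CPM in macrophages and 5.35, 2.78, 8.34 and 7.57 CPM in microglia (log2 fold change -5.29 ± 0.47, adjusted p = 2.9e-05). Ifitm6 had 333, 286 and 172 CPM in macrophages and was at 0 in microglia. These IFITM genes are neighbors on chromosome 7 and were all higher in macrophages. Ly6e, a surface protein induced by interferon, had 1093, 1289 and 1314 CPM in macrophages and 475, 356, 442 and 386 CPM in microglia (log2 fold change -1.52 ± 0.17, adjusted p = 0.00017). Slfn2, a Schlafen family member, had 144, 200.4 and 166 CPM in macrophages and 19.1, 19.9, 47 and 25.3 CPM in microglia (log2 fold change -2.55 ± 0.45, adjusted p = 0.0029). Bst2, tetherin, had 179, 208, 163 and 183 CPM in microglia and 124, 164 and 105 CPM in macrophages and did not pass the test (adjusted p = 0.27). Without microglia mouse 5, the log2 fold change was -7.59 for Ifitm3.

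Adhesion genes were called in both directions. Of 31 integrins, selectins and related genes, 28 were tested, 9 were higher in microglia (6 with the block) and 13 in macrophages (12 with the block), with a median of 0.07 and a summed level of 6325 to 7459 CPM in microglia and 9796 to 10812 CPM in macrophages. The median was -0.15 without macrophage mouse 2, -0.49 without microglia mouse 5 and -0.30 without microglia mouse 7. Itgal, the α chain of LFA-1, had 1119, 1068 and 1009 CPM in macrophages and was at 0 in microglia (at least 1407-fold). Itga4, the α chain of VLA-4, had 425, 645 and 671 CPM in macrophages. It was also at 0 in every microglia library. Both molecules serve leukocyte arrest on endothelium. Itgb2, the β chain shared by LFA-1 and CD11b, had 1573, 1212 and 1546 CPM in macrophages and 468, 445, 575 and 265 CPM in microglia (log2 fold change -1.66 ± 0.24, adjusted p = 0.00073). Cd44, the hyaluronan receptor, had 1373, 1485 and 1789.7 CPM in macrophages and 0, 0, 16.9 and 0 CPM in microglia (log2 fold change -8.43 ± 1.62, adjusted p = 0.0083). Adgre5, which encodes CD97, had 2000.5, 1841 and 1695 CPM in macrophages and 40.1, 51.5, 22 and 0.185 CPM in microglia (adjusted p = 0.0063). F11r, the junction protein JAM-A, had 1102, 1090.0, 1041 and 926 CPM in microglia and 72.7, 82 and 45.7 CPM in macrophages (log2 fold change 4.02 ± 0.25, adjusted p = 2.1e-06). Itgb5, a partner of αV, had 1196, 968, 965 and 855 CPM in microglia and 235, 113 and 88.2 CPM in macrophages (log2 fold change 2.85 ± 0.32, adjusted p = 0.00015). Itga6, the laminin receptor α6, had 449, 669, 462 and 552 CPM in microglia and 23, 15.7 and 20.7 CPM in macrophages (log2 fold change 4.81 ± 0.30, adjusted p = 2.1e-06). These 3 genes were higher in every microglia library than in any macrophage library. Without microglia mouse 5, Cd44 was at 0 in the remaining microglia libraries.

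The actin and migration machinery was mostly higher in macrophages. Of 39 genes, all tested, 25 were higher in macrophages (20 with the block) and 6 in microglia (3 with the block), with a median of -1.64 and a summed level of 21126 to 25530.3 CPM in microglia and 36174 to 40122 CPM in macrophages. Flna, filamin A, had 2053, 1666 and 1415 CPM in macrophages and 94.1, 110.3, 32.2 and 76.5 CPM in microglia (log2 fold change -4.39 ± 0.36, adjusted p = 2.1e-05). Tln1, talin, had 984, 836 and 872 CPM in macrophages and 234, 272, 219 and 222 CPM in microglia (log2 fold change -1.86 ± 0.18, adjusted p = 5.1e-05). Tagln2, transgelin 2, had 1260.3, 966 and 1385 CPM in macrophages and 298, 218, 252 and 253 CPM in microglia (log2 fold change -2.18 ± 0.19, adjusted p = 2.8e-05). The crosslinker, the integrin adaptor and the actin-binding protein were thus all higher in macrophages. Arpc1b, a subunit of the ARP2/3 complex, had 2645, 3190.4 and 3222 CPM in macrophages and 1265, 832, 931 and 1184 CPM in microglia (log2 fold change -1.47 ± 0.18, adjusted p = 0.00023). These genes were present at over 30 CPM in every library of both cell types. Members higher in microglia included Marcks, a protein that links actin to the membrane, with 2104, 2298, 2017 and 2969 CPM in microglia and 405, 357 and 378 CPM in macrophages (log2 fold change 2.69 ± 0.19, adjusted p = 4.5e-06). Rhob, a small GTPase, had 4044, 4007, 3825 and 4583 CPM in microglia and 407, 637 and 592 CPM in macrophages (log2 fold change 2.97 ± 0.20, adjusted p = 3.3e-06). Elmo1, which helps activate Rac during engulfment, had 239, 378, 293 and 292 CPM in microglia and 73.7, 124 and 99.7 CPM in macrophages (log2 fold change 1.65 ± 0.31, adjusted p = 0.0037).

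Transcription factors of myeloid identity were called in both directions. Of 50 listed, 47 were tested, 16 were higher in microglia (12 with the block) and 9 in macrophages (5 with the block), with a median of 0.56 and a summed level of 33639 to 42224 CPM in microglia and 21758 to 24505 CPM in macrophages. Cebpa, C/EBPα, had 876, 827, 757 and 759 CPM in microglia and 97.7, 76.1 and 79.9 CPM in macrophages (log2 fold change 3.31 ± 0.20, adjusted p = 1.8e-06). Cebpb, C/EBPβ, had 669, 761 and 549 CPM in macrophages and 124, 166, 158 and 83.3 CPM in microglia (log2 fold change -2.26 ± 0.27, adjusted p = 0.00022). These 2 members of the C/EBP family thus differed in direction. Klf13, a zinc finger factor, had 762, 753 and 804 CPM in macrophages and 161, 184, 133 and 139 CPM in microglia (log2 fold change -2.27 ± 0.20, adjusted p = 2.7e-05). Runx3, a factor of lymphocytes and other blood leukocytes, had 172, 159 and 226 CPM in macrophages and 0.573, 0, 0.19 and 4.43 CPM in microglia (log2 fold change -7.02 ± 1.09, adjusted p = 0.0013). Bhlhe41, a repressor, had 105, 84.6, 228 and 83.3 CPM in microglia and 0.247, 0 and 0 CPM in macrophages (adjusted p = 6.1e-05). Spi1, which encodes PU.1, had 569, 554 and 387 CPM in macrophages and 286, 242, 208 and 145 CPM in microglia (log2 fold change -1.14 ± 0.26, adjusted p = 0.012). Irf8, a partner of PU.1, had 917, 1047, 1088 and 818 CPM in microglia and 740.4, 601 and 1237 CPM in macrophages and did not pass the test (adjusted p = 0.63). Zeb2, a repressor that maintains macrophage identity, had 803, 617 and 426 CPM in macrophages and 306, 257, 344 and 314 CPM in microglia (log2 fold change -0.94 ± 0.23, adjusted p = 0.017). The block took away the call of Spi1 (adjusted p = 0.13). Without microglia mouse 7, the log2 fold change was -9.29 for Runx3.

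**Figure D4:**
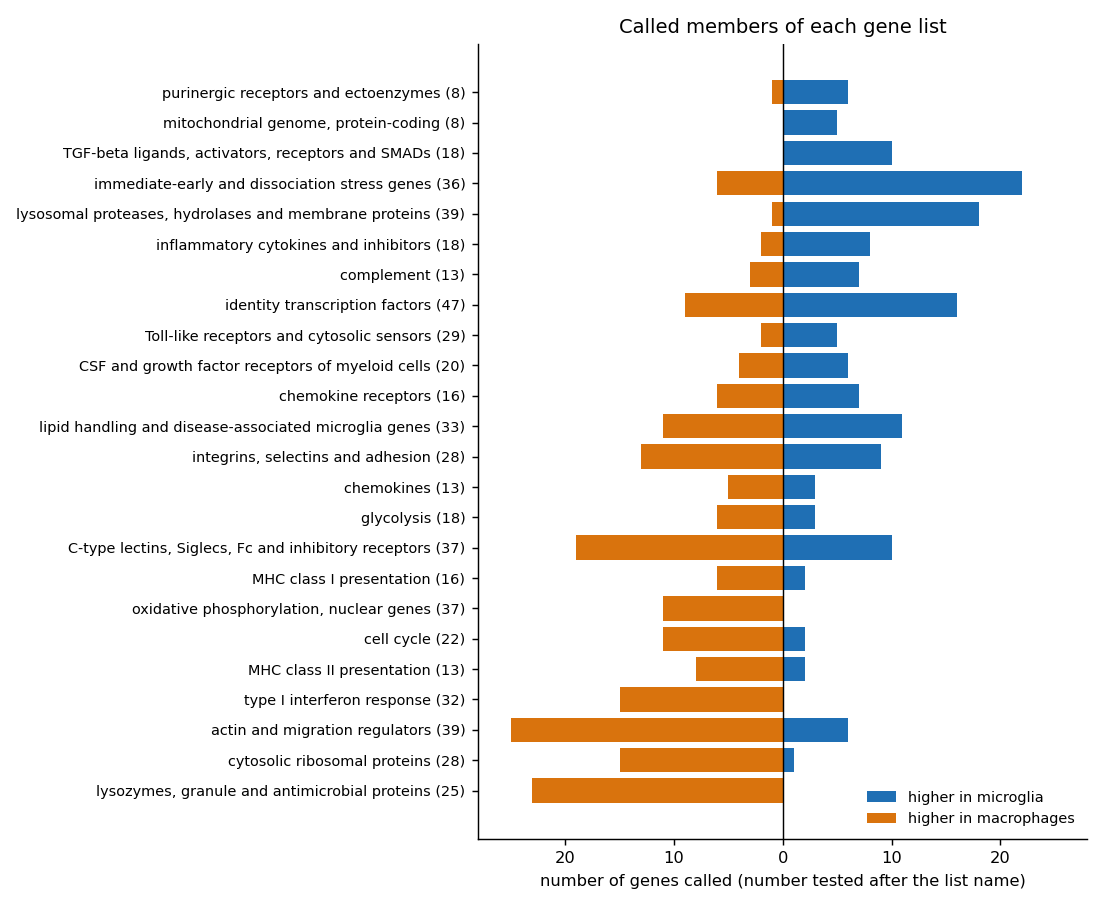
Number of tested members of each of 24 pathway lists that were called higher in microglia (blue, to the right of 0), or called higher in macrophages (orange, to the left of 0), with the number tested after the name. Granule proteins (0 against 23), actin regulators (6 against 25) and interferon genes (0 against 15) leaned to macrophages, and lysosomal genes (18 against 1), TGF-β genes (10 against 0) and immediate-early genes (22 against 6) leaned to microglia.

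Genes of granule and antimicrobial proteins were higher in macrophages. Of 29 listed, 25 were tested, 23 were higher in macrophages (17 with the block) and none in microglia, with a median log2 fold change of -9.21 as fitted and -6.47 with genes at or near 0 in microglia at their bounds. Their summed level was 987 to 1322 CPM in microglia and 29468 to 35653 CPM in macrophages. Lyz2 (chr10:117277331-117282321), lysozyme M, had 18039, 17884 and 16311 CPM in macrophages and 280.3, 350.1, 238 and 279.9 CPM in microglia (log2 fold change -5.86 ± 0.15, adjusted p = 6.6e-09), a 60.7-fold difference in mean level and the smallest p of all genes tested. It was the most abundant member of the list in both cell types. Cybb, the catalytic subunit of the phagocyte NADPH oxidase, had 1496, 1729.6 and 1512 CPM in macrophages and 0.382, 16.2, 37.2 and 16.4 CPM in microglia (log2 fold change -6.43 ± 0.99, adjusted p = 0.0028). S100a6, a calcium-binding protein, had 1563, 1575 and 1419.8 CPM in macrophages and 0.191, 5.81, 4.17 and 0 CPM in microglia (log2 fold change -9.21 ± 1.05, adjusted p = 0.00044). Camp, cathelicidin, had 865, 672 and 679.6 CPM in macrophages and 0, 0.252, 0.19 and 1.11 CPM in microglia (log2 fold change -10.69 ± 0.63, adjusted p = 1.6e-06). Wfdc21 had 230.2, 79.2 and 122 CPM in macrophages and was at 0 in microglia. For these genes every macrophage library was above every microglia library. Cybb and S100a6 were not called with the mouse as a block (adjusted p = 0.15 to 0.28). Without microglia mouse 2, the log2 fold change was -9.98 for S100a6. Without microglia mouse 5, the log2 fold change was -7.14 for Cybb. Without microglia mouse 7, the log2 fold change was -12.11 for Camp.

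Lysosomal genes that were called were higher in microglia in all but 1 case. Of 40 proteases, hydrolases and membrane proteins, 39 were tested, 18 were higher in microglia (13 with the block) and 1 in macrophages (0 with the block), with a median of 0.71 and a summed level of 47411 to 50593 CPM in microglia and 16286 to 17053 CPM in macrophages. Cst3, cystatin C, a secreted inhibitor of cysteine proteases, was the most abundant, with 15614, 15224, 14079 and 15839.7 CPM in microglia and 2164, 2448 and 1682 CPM in macrophages (log2 fold change 2.92 ± 0.14, adjusted p = 3.2e-07). Ctsd, the aspartic protease cathepsin D, had 2155, 1912, 1825 and 2078 CPM in microglia and 168, 336 and 212 CPM in macrophages (log2 fold change 3.11 ± 0.25, adjusted p = 1.9e-05). Ctsl, the cysteine protease cathepsin L, had 734, 488, 695 and 545 CPM in microglia and 100.1, 78.5 and 95.2 CPM in macrophages (log2 fold change 2.81 ± 0.24, adjusted p = 2.3e-05). The inhibitor and these proteases were thus higher in the same cell type. Lgmn, legumain, which processes cathepsins, had 2223, 2367, 2411 and 1342 CPM in microglia and 152, 182 and 154 CPM in macrophages (log2 fold change 3.74 ± 0.24, adjusted p = 2.6e-06). Laptm5, a lysosomal membrane protein of leukocytes, had 2838, 3142, 2525 and 2982 CPM in microglia and 2397, 2345 and 2132 CPM in macrophages and was not called (log2 fold change 0.39 ± 0.13, adjusted p = 0.061). The 1 member higher in macrophages was Ctsc, which activates granule serine proteases, with 366, 411 and 459 CPM in macrophages and 214, 304, 197 and 245 CPM in microglia (adjusted p = 0.06). In the fit with the mouse block, Ctsc was no longer called (adjusted p = 0.5). Ctsc was not called without macrophage mice 2 or 6 or microglia mice 1 or 5 (adjusted p = 0.11 to 0.16).

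Lipid handling genes and the genes that microglia raise near plaques were evenly split, with 11 of 33 tested members (43 listed) higher in each cell type, a median of -0.54 and summed levels of 13392 to 15372 CPM in microglia and 12207 to 15398 CPM in macrophages. Apoe, which carries lipids, had 1003, 850.4 and 669 CPM in macrophages and 126, 193, 175 and 248 CPM in microglia (log2 fold change -2.11 ± 0.26, adjusted p = 0.00026). Trem2, a lipid-sensing receptor, had 1056, 1184, 1403 and 978 CPM in microglia and 11.9, 59.97 and 181 CPM in macrophages (log2 fold change 3.81 ± 0.79, adjusted p = 0.011). Tyrobp, the adaptor through which TREM2 signals, had 1135, 1258 and 1036 CPM in macrophages and 596, 487, 674 and 565 CPM in microglia (log2 fold change -0.92 ± 0.17, adjusted p = 0.0035). Receptor and adaptor thus differed in direction. Plin2, a coat protein of lipid droplets, had 241, 222 and 192 CPM in macrophages and 21, 43.7, 6.83 and 29.9 CPM in microglia (log2 fold change -3.04 ± 0.55, adjusted p = 0.0032). Cd52, a small glycoprotein of leukocytes, had 1032, 763 and 575 CPM in macrophages and 134, 92.6, 149 and 133 CPM in microglia (log2 fold change -2.57 ± 0.25, adjusted p = 6.3e-05). Both were higher in macrophages. Fabp4, a fatty acid chaperone, had 123, 73.6 and 119 CPM in macrophages and was at 0 in microglia. Timp2, an inhibitor of matrix metalloproteases, had 893, 901, 1042 and 910.4 CPM in microglia and 138, 80.2 and 157 CPM in macrophages (log2 fold change 2.96 ± 0.26, adjusted p = 2.7e-05). Fth1, ferritin heavy chain, had 1792, 1247, 1452 and 1287 CPM in microglia and 1739.9, 1604 and 995 CPM in macrophages and did not pass the test (adjusted p = 0.89). Without macrophage mouse 6, the log2 fold change was 5.06 for Trem2.

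Pattern recognition genes were called about as often as all genes. Of 34 Toll-like receptors and cytosolic sensors, 29 were tested, 5 were higher in microglia (3 with the block) and 2 in macrophages (0 with the block), which is 24.1% called against 22.7% of all genes, with a median of 0.42 and a summed level of 4233 to 4793 CPM in microglia and 2761 to 3563 CPM in macrophages. Tmem173, which encodes STING, had 576, 371, 547 and 424 CPM in microglia and 128, 39.3 and 94.3 CPM in macrophages (log2 fold change 2.52 ± 0.38, adjusted p = 0.0011). Unc93b1, which carries nucleic acid-sensing Toll-like receptors to endosomes, had 1242, 1387, 1116 and 898 CPM in microglia and 579, 574 and 586 CPM in macrophages (log2 fold change 1.06 ± 0.18, adjusted p = 0.002). Both serve nucleic acid sensing and were higher in microglia. Cd14, the co-receptor for LPS, had 338, 241, 406 and 261 CPM in microglia and 396, 573 and 401 CPM in macrophages and did not pass the test (adjusted p = 0.23).

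Of 45 C-type lectins, Siglecs, Fc and inhibitory receptors, 37 were tested, 10 were higher in microglia (5 with the block) and 19 in macrophages (10 with the block), with a median of -2.12 and a summed level of 7876 to 8903 CPM in microglia and 5996 to 6807 CPM in macrophages. Fcgr3, a low-affinity IgG receptor, had 722, 754, 932 and 786 CPM in microglia and 270.0, 216 and 301 CPM in macrophages (log2 fold change 1.66 ± 0.20, adjusted p = 0.00025). Sirpa, which binds CD47 and restrains engulfment, had 1917, 1791, 1743 and 2082 CPM in microglia and 527, 495 and 887 CPM in macrophages (log2 fold change 1.62 ± 0.23, adjusted p = 0.00063). Lair1, an inhibitory collagen receptor, had 936, 963, 784 and 804 CPM in microglia and 104, 236 and 138 CPM in macrophages (log2 fold change 2.50 ± 0.30, adjusted p = 0.0002). All 3 were higher in microglia. Clec4e, the receptor Mincle, had 262, 251 and 179 CPM in macrophages. Trem1, which amplifies inflammatory signals, had 166, 127 and 190.0 CPM. Sirpb1c had 129, 110.4 and 136 CPM. These 3 were at 0 in every microglia library. Clec4a3 was present in both cell types, with 522, 362 and 453 CPM in macrophages and 105, 74, 111 and 102 CPM in microglia (log2 fold change -2.12 ± 0.25, adjusted p = 0.00023).

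Il1a and Il1b, the genes of interleukin-1α and interleukin-1β, differed in opposite directions. Of 29 cytokines and inhibitors, 18 were tested, 8 were higher in microglia (7 with the block) and 2 in macrophages, with a median of 1.05 and a summed level of 15571 to 17014 CPM in microglia and 7934 to 9901 CPM in macrophages. Il1a had 759, 546, 621 and 610.0 CPM in microglia and 0, 1.73 and 19.4 CPM in macrophages (log2 fold change 6.52 ± 1.23, adjusted p = 0.0067). Il1b had 1303, 861 and 1383 CPM in macrophages and 327, 252, 449.7 and 695 CPM in microglia (log2 fold change -1.39 ± 0.33, adjusted p = 0.013). Tnf had 363, 329, 269.8 and 228 CPM in microglia and 56.4, 61.3 and 75.4 CPM in macrophages (log2 fold change 2.26 ± 0.30, adjusted p = 0.00045). Il1a and Tnf were thus higher in microglia, and Il1b in macrophages. Socs3, a feedback inhibitor of cytokine receptors, had 2045, 2506, 2386 and 1202 CPM in microglia and 427, 465 and 790.4 CPM in macrophages (log2 fold change 1.91 ± 0.30, adjusted p = 0.0014). Nfkbia, the NF-κB inhibitor IκBα, had 8397, 7442, 8158 and 8872 CPM in microglia and 4600.4, 3711 and 4454 CPM in macrophages (log2 fold change 1.01 ± 0.12, adjusted p = 0.00018). Nfkbiz, a related regulator, had 1274, 1543, 1739 and 1756 CPM in microglia and 829, 603 and 699.7 CPM in macrophages (log2 fold change 1.22 ± 0.18, adjusted p = 0.00092). These 3 genes, which NF-κB or cytokine signals induce, were all higher in microglia. Ptgs1, the prostaglandin synthase COX-1, had 482, 408, 479 and 347 CPM in microglia and 8.16, 39.5 and 52 CPM in macrophages (log2 fold change 3.72 ± 0.56, adjusted p = 0.001). Alox5ap, which presents arachidonic acid to 5-lipoxygenase, had 1089, 961 and 1087 CPM in macrophages and 374, 287, 321 and 529.6 CPM in microglia (log2 fold change -1.41 ± 0.23, adjusted p = 0.0017). Without macrophage mouse 6, the log2 fold change was 9.48 for Il1a.

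Immediate-early genes, which enzymatic dissociation of brain is known to raise, were among the most abundant genes of microglia. Of 38 listed, 36 were tested, 22 were higher in microglia (19 with the block) and 6 in macrophages (6 with the block), with a median of 0.97 and a summed level of 89823 to 112387 CPM in microglia and 40358 to 46824 CPM in macrophages. Jun, a subunit of AP-1, had 9998, 10207, 10159 and 9254 CPM in microglia and 1225, 1430.0 and 1117 CPM in macrophages (log2 fold change 3.03 ± 0.13, adjusted p = 1.2e-07). Egr1, a zinc finger factor, had 8048, 7879, 7051 and 7256 CPM in microglia and 535, 656 and 669 CPM in macrophages (log2 fold change 3.66 ± 0.15, adjusted p = 7.7e-08). Ier5 had 6273, 6298, 5953 and 6143 CPM in microglia and 837, 797 and 749 CPM in macrophages (log2 fold change 3.02 ± 0.12, adjusted p = 6.8e-08). The libraries of a cell type were close to each other for these 3 genes. Atf3, a stress-induced repressor, had 4532, 3668, 3950.5 and 3877 CPM in microglia and 1035, 1044 and 822 CPM in macrophages (log2 fold change 2.11 ± 0.14, adjusted p = 3.3e-06). Junb, another AP-1 subunit, had 11395, 11417, 12583 and 7953 CPM in microglia and 5393, 5061 and 5508 CPM in macrophages (log2 fold change 1.08 ± 0.14, adjusted p = 0.00048). Other members were higher in macrophages. Fosl2, an AP-1 partner, had 790.1, 603 and 1025 CPM in macrophages and 115, 94.9, 76.6 and 80.7 CPM in microglia (log2 fold change -3.08 ± 0.25, adjusted p = 1.9e-05). Dusp2, a phosphatase that stops MAP kinases, had 1795, 974 and 1259 CPM in macrophages and 217, 299, 168 and 271 CPM in microglia (log2 fold change -2.42 ± 0.26, adjusted p = 9.9e-05). Dusp5, a related phosphatase, had 563, 557 and 569 CPM in macrophages and 60.3, 35.3, 34.3 and 2.77 CPM in microglia (log2 fold change -4.04 ± 0.71, adjusted p = 0.0035). Nr4a1, a nuclear receptor that patrolling monocytes need, had 5544, 3932 and 3672 CPM in macrophages and 2769, 2128, 2205 and 714 CPM in microglia (adjusted p = 0.067). Both cell types thus held high levels of different members. These genes move with the cell types, and their part in the other results was not tested. Nr4a1 was not called without macrophage mouse 1 (adjusted p = 0.15).

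Cell cycle genes leaned to macrophages. Of 34 listed, 22 were tested, 11 were higher in macrophages (5 with the block) and 2 in microglia (0 with the block), with a median of -1.60 and a summed level of 1329 to 1629 CPM in microglia and 3000.0 to 3738 CPM in macrophages. The called genes with the smallest p were not mitotic. Ccnd3, a G1 cyclin, had 289, 366 and 358 CPM in macrophages and 59.2, 21.5, 40.01 and 39.2 CPM in microglia (log2 fold change -3.03 ± 0.37, adjusted p = 0.00025). Cdkn1b, an inhibitor of the cycle, had 258, 443 and 707 CPM in macrophages and 123, 72.2, 55.7 and 122 CPM in microglia (log2 fold change -2.29 ± 0.40, adjusted p = 0.0028). Ube2c, of the mitotic ubiquitin ligase, had 39.6, 43.8 and 70.7 CPM in macrophages and was at 0 in microglia (adjusted p = 0.0037). With the mouse as a block, the call of Ube2c was lost (adjusted p = 0.11).

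Median fold changes of energy metabolism genes differed in direction between nuclear and mitochondrial genes. Of 37 nuclear genes of oxidative phosphorylation, all tested, 11 were higher in macrophages and none in microglia. This is 29.7% called against 22.7% of all genes. Their median was -1.09, and their summed level was 2802 to 3194 CPM in microglia and 5323 to 6323 CPM in macrophages. With the block, only 1 of the 37 was called. Cox4i1, of cytochrome c oxidase, had 248, 193 and 293 CPM in macrophages and 42.6, 80.02, 41.7 and 38.4 CPM in microglia (log2 fold change -2.22 ± 0.37, adjusted p = 0.0021). Atp5g3, of ATP synthase, had 704, 701 and 1018 CPM in macrophages and 423, 399, 286 and 186 CPM in microglia (log2 fold change -1.27 ± 0.28, adjusted p = 0.01). Of 13 protein-coding genes of the mitochondrial genome, 8 were tested, 5 were higher in microglia, with or without the block, and none in macrophages, with a median of 1.26 and a summed level of 21589 to 25819 CPM in microglia and 8501 to 9914 CPM in macrophages. Among them mt-Nd4, of complex I, had 7090.3, 8834, 8108 and 7616 CPM in microglia and 2813, 1955 and 2805 CPM in macrophages (log2 fold change 1.71 ± 0.15, adjusted p = 3e-05). The medians of nuclear and mitochondrial genes of the same machinery thus differed in direction, while few nuclear genes were called with the block. Of 25 glycolysis genes, 18 were tested, 3 were higher in microglia and 6 in macrophages, with a median of 0.06 and a summed level of 1880.2 to 2186 CPM in microglia and 1756 to 2006 CPM in macrophages. Without macrophage mouse 1 or 6 or microglia mouse 2 or 7, that median was between -0.36 and -0.11. Hk2, the first enzyme of the path, had 299, 552, 549 and 525 CPM in microglia and 114, 121 and 185 CPM in macrophages (log2 fold change 1.83 ± 0.31, adjusted p = 0.0022). Pkm, the last, had 378, 533 and 436 CPM in macrophages and 132, 74.5, 96.1 and 58 CPM in microglia (log2 fold change -2.27 ± 0.31, adjusted p = 0.00058). The lactate exporter Slc16a3 had 262, 213 and 164 CPM in macrophages and 55, 26.5, 42.5 and 49.5 CPM in microglia (log2 fold change -2.23 ± 0.37, adjusted p = 0.002). Hk2 was thus higher in microglia, and Pkm and Slc16a3 were higher in macrophages. Of 38 cytosolic ribosomal protein genes, 28 were tested, 15 were higher in macrophages (12 with the block) and 1 in microglia (0 with the block), with a median of -1.33 and a summed level of 4895 to 6035 CPM in microglia and 11696 to 12741 CPM in macrophages. Rpl32, of the large subunit, had 705, 697 and 641 CPM in macrophages and 147, 93.4, 173 and 169 CPM in microglia (log2 fold change -2.16 ± 0.25, adjusted p = 0.00017). Rps3, of the small subunit, had 1945, 1381 and 1728 CPM in macrophages and 573, 644, 550.4 and 659.5 CPM in microglia (log2 fold change -1.41 ± 0.16, adjusted p = 0.00018). Ribosomal protein genes have many processed copies, and reads shared with them may be missing from these counts. The block took away the calls of Cox4i1 and Atp5g3 (adjusted p = 0.12 to 0.21).

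The largest fitted folds were ranked among called genes without overlap that had at least 100 CPM in the higher cell type and over 3 counts in a library of the lower, which leaves out genes at or near 0 in all libraries of the lower. Those highest in microglia were Sall1, Adap2, Gpr155, Mgll, Il1a, Rab3il1, Chst1, Slc2a5, Adora3, Pald1, Nav3 and P2ry13. Mgll, which breaks down the endocannabinoid 2-arachidonoylglycerol, had 108, 93.6, 97.8 and 111 CPM in microglia and 2.97, 0 and 0 CPM in macrophages (log2 fold change 6.79 ± 1.26, adjusted p = 0.0038). Chst1, a sulfotransferase that modifies keratan sulfate, had 188, 147, 103 and 141 CPM in microglia and 0, 0.431 and 4.95 CPM in macrophages (log2 fold change 6.34 ± 1.10, adjusted p = 0.0025). Nav3, a neuron navigator protein, had 253, 248, 193 and 186 CPM in microglia and 0, 13.2 and 0 CPM in macrophages (log2 fold change 5.66 ± 1.43, adjusted p = 0.025). In each of these 3 genes at least 1 macrophage library was at 0. By the same rule, those highest in macrophages were Camp, Napsa, S100a6, Spn, S100a8, Fgr, Rara, Cd44, Il2rb, Cytip, Plbd1 and Pla2g7. Napsa, an aspartic protease, had 243, 339 and 267 CPM in macrophages and 1.34, 0, 0 and 0 CPM in microglia (log2 fold change -9.52 ± 0.97, adjusted p = 8e-05). Fgr, a SRC-family kinase of myeloid cells, had 400.0, 334 and 279 CPM in macrophages and 0, 0, 2.46 and 0.185 CPM in microglia (log2 fold change -8.82 ± 1.00, adjusted p = 0.00016). Rara, the retinoic acid receptor α, had 171, 152 and 86.4 CPM in macrophages and 0, 1.26, 0 and 0 CPM in microglia (log2 fold change -8.76 ± 1.23, adjusted p = 0.00065). Spn, CD43, had 923, 740.1 and 457 CPM in macrophages and 0, 1.77, 3.98 and 0 CPM in microglia (log2 fold change -8.86 ± 1.06, adjusted p = 0.00051). In each of these 4 genes at least 2 microglia libraries were at 0, and the size of such folds rests on a few counts. Nav3 was not called with the mouse as a block (adjusted p = 0.17). Without macrophage mouse 1, Mgll was at 0 in the remaining macrophage libraries. Without macrophage mouse 2, Nav3 was at 0 in the remaining macrophage libraries. Without macrophage mouse 6, the log2 fold change was 9.22 for Chst1. Without microglia mouse 1, Napsa was at 0 in the remaining microglia libraries. Without microglia mouse 2, Rara was at 0 in the remaining microglia libraries. Without microglia mouse 5, the log2 fold changes were -11.78 for Fgr and -10.35 for Spn.

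The same contrast was set beside that of older WT mice. The difference between microglia and macrophages was compared at 5–6 and 11–12 months over 14 WT libraries. Ages were taken from the sample titles, and the separate age field of the older WT microglia gives 5–6 months, so their age is uncertain. Of 8306 genes tested, 4 had a higher and 8 a lower difference at 5–6 months (0.0482% and 0.0963%, or 0.144% in all, edgeR's adjusted p under 0.1 and fold over 1.5). DESeq2 called 82 and 98. With the mouse as a block over all 28 libraries, edgeR called 0 genes, with 109 and 152 at an unadjusted p under 0.05. Of the 8, 6 were higher in microglia and were found at higher levels in younger than in older macrophages. P2ry12 had 58.8, 121 and 72.3 CPM in WT macrophages at 5-6 months and 0.339, 5.97 and 4.84 CPM in WT macrophages at 11-12 months (difference of log2 fold changes -4.36 ± 0.70, adjusted p = 0.038), while microglia held 2107 ± 221 and 1907 ± 225 CPM (SD, n = 4 each) at the 2 ages. C1qa had 141, 310.2 and 400.0 CPM in WT macrophages at 5-6 months and 42.2, 69.8 and 33.5 CPM in WT macrophages at 11-12 months (difference of log2 fold changes -2.50 ± 0.40, adjusted p = 0.02). Every younger macrophage library was above every older one for both genes. Gpr34, a lysophosphatidylserine receptor, had 37.3, 29.6 and 13.5 CPM in WT macrophages at 5-6 months and 1.36, 5.97 and 0.44 CPM in WT macrophages at 11-12 months (difference of log2 fold changes -3.49 ± 0.68, adjusted p = 0.091). Mertk had 3.21, 57.8 and 12.8 CPM in WT macrophages at 5-6 months and 0, 0.239 and 0 CPM in WT macrophages at 11-12 months (difference of log2 fold changes -7.94 ± 1.35, adjusted p = 0.063). Plxdc2 had 11.9, 6.26 and 26.6 CPM in WT macrophages at 5-6 months and 0.339, 0.239 and 0 CPM in WT macrophages at 11-12 months (difference of log2 fold changes -6.11 ± 0.85, adjusted p = 0.0024). The younger macrophages were again the higher group in each of these genes. Tns1, a focal adhesion protein, had 28.4, 7.33 and 10.6 CPM in WT macrophages at 5-6 months and 0.508, 0 and 0.44 CPM in WT macrophages at 11-12 months (difference of log2 fold changes -5.25 ± 1.03, adjusted p = 0.063). The gap between the cell types was smaller at 5–6 months for these 6 genes. Ace and Mgl2, higher in macrophages, had a larger gap at 5–6 months. Ace had a mean of 0 CPM in younger and 18.4 CPM in older microglia (difference of log2 fold changes -10.42 ± 1.25, adjusted p = 0.0024), and Mgl2 0.902 and 20.5 CPM (difference of log2 fold changes -5.72 ± 1.18, adjusted p = 0.091). Among genes with a higher difference, 4632427E13Rik, Efnb1 and Zfp839 had means of 0.0719 to 0.237 CPM in the younger macrophages and 15.8 to 42 CPM in the older ones. The calls of Ace, 4632427E13Rik, Plxdc2 and C1qa held without any 1 library, and those of P2ry12, Efnb1, Mertk, Tns1, Mgl2, Gpr34 and Zfp839 were lost without 4 to 11 of the 14 libraries, with an adjusted p of up to 0.21. Without 1 of the 3 younger macrophage libraries, 11 to 20 genes had a higher and 14 to 22 a lower difference. Without older macrophage mouse 4 the counts were 7 and 21, and without mouse 7 they were 15 and 13. Without any 1 microglia library other than younger mouse 2, they were 2 to 4 and 3 to 5.

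**Figure D5:**
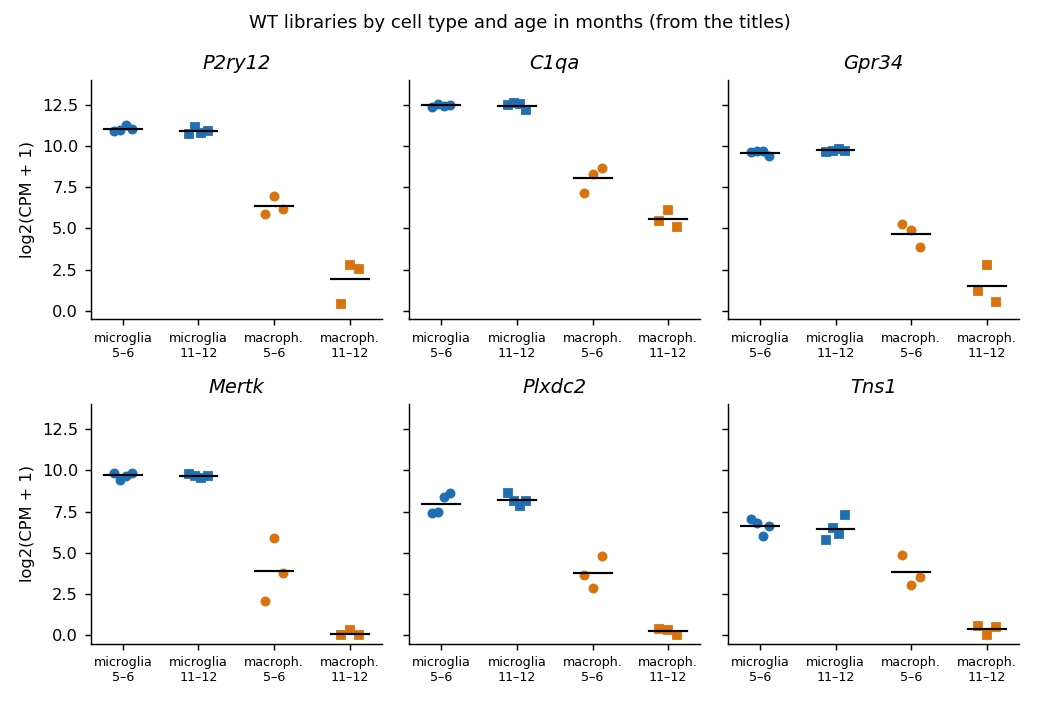
Level of 6 genes higher in microglia in each WT library (y axis, log2(CPM + 1)) by cell type and age. There is 1 point a library and a bar at the mean of each group of 4 microglia or 3 macrophage libraries. Microglia levels overlap between ages, and macrophages at 5–6 months lie above those at 11–12 months. The 6 genes were chosen because they were called in this comparison of ages, so the pattern does not describe microglial genes in general.

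The contrast was also set beside that of CReCOM mice at 5–6 months. The titles place their microglia at this age and the age field gives 11–12 months, so it is uncertain too. Of 8366 genes tested, 18 had a higher and 6 a lower difference between the cell types in WT mice (0.215% and 0.0717%, or 0.287% in all). DESeq2 called 99 and 90, and with the block over all 28 libraries edgeR called 0, with 179 and 150 genes at an unadjusted p under 0.05. The 10 genes with the smallest p were Scamp5, Gem, Efnb1, Adap2, Rpsa-ps10, Cdk5rap3, Coprs, 9430020K01Rik, Csad and Zfp839. Gem, a small GTP-binding protein, had 112, 97.1 and 9.45 CPM in WT macrophages at 5-6 months and 0, 0.719 and 0.158 CPM in CReCOM macrophages at 5-6 months (difference of log2 fold changes -6.99 ± 1.07, adjusted p = 0.022). Efnb1, ephrin B1, had 0.247, 0 and 0 CPM in WT macrophages at 5-6 months and 11.8, 6.11 and 56.4 CPM in CReCOM macrophages at 5-6 months (difference of log2 fold changes 8.20 ± 1.35, adjusted p = 0.023). Adap2, which binds phosphoinositides, had 0.247, 0 and 1.35 CPM in WT macrophages at 5-6 months and 11.8, 15 and 37.7 CPM in CReCOM macrophages at 5-6 months (difference of log2 fold changes 5.72 ± 0.97, adjusted p = 0.024). For each of the 3 genes the macrophage libraries of the 2 genotypes did not overlap. The CReCOM macrophage libraries at 5–6 months held 6309385 to 8344189 counts, more than the WT ones. Hemoglobin genes made up 1.59% of the library of CReCOM macrophage mouse 5, against at most 0.0232% in any other library. That library had the highest level of Efnb1 and Adap2 among these macrophages. The calls of the first 5 genes held without any 1 library, and those of the other 5 were lost without 3 to 5 of the 14 libraries, with an adjusted p of up to 0.14. Without WT macrophage mouse 2, 46 genes had a higher and 15 a lower difference, and without mouse 6 the counts were 36 and 11. Without WT microglia mouse 2, 5 or 7, any 1 CReCOM microglia library, or CReCOM macrophage mouse 4 or 5, they were 2 to 11 and 3 to 7. Both comparisons share the 7 WT libraries at 5–6 months.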

How the data were processed

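Microglia and macrophages were sorted from the brains of WT and CReCOM mice, and 3′ ends of mRNA were sequenced in 28 libraries. The authors trimmed reads with bbduk after bcl2fastq, aligned them to GRCm38 (mm10) with STAR and deposited raw HTSeq counts and CPM (counts scaled to the same total in every library), in separate tables for each cell type. Tool versions, the annotation release and the strand setting are not given in the sources used here. Without the strand setting, reads of genes that overlap cannot be told apart. CPM was recomputed from the counts and differed from the deposited CPM by at most 0.0101% in the 7 libraries of the comparison. Gnai3, the first gene of the deposited CPM tables, and 1 other gene have no row in the microglia counts, and 49669 genes were joined.

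Genes with log2(mean CPM + 1) over 4 in microglia or over 5 in macrophages were tested with edgeR 4.0.16 in R 4.3.3 (TMM factors, robust quasi-likelihood F-test, Benjamini-Hochberg adjustment over all genes tested). Genes with an adjusted p below 0.1 and more than a 1.5-fold change were called. The script was tested on simulated data. Alternatives used DESeq2 1.42.0, limma 3.58.1, other factors and filters, fits without 1 library, and the mouse as a block. Folds against a group at 0 were computed against 3 counts per library, and intervals cover counting error only. The number in a library name was read as that of the mouse, so libraries 1 and 2 of both cell types were taken as pairs in the blocked fits. The labels do not state this outright, and deviations of these libraries from their group means correlated at 0.0148 and -0.0223, so the data do not show the pairing. Each library of 1 cell type had its own number, and if these were not separate mice, p-values measure technical spread.

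The members and lists were chosen with earlier results of these data known. Named genes were the 12 called genes with the largest change in each direction that did not overlap between libraries and had a mean of at least 100 CPM in the higher group and over 3 counts in 1 library of the lower, the gate genes, any member of lists of up to 15 genes, up to 6 members with the smallest p and 4 with the highest mean of longer lists together with those called in the rarer direction, and up to 10 genes with the smallest p in each interaction. Lyve1, Pf4, Siglec1, Cd163, Trbc2, Trac, Cd3d, Cd3e, Cd3g, Cd8a, Cxcr2, Gfap, Aqp4, Gpr34, Gm42418, mt-Rnr1 and mt-Rnr2 were named after their values were seen. Some genes are not reported here.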

Additional observations from a re-analysis of the deposited data

Results flagged for a closer look

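In 24 of the 205 tested genes named here, 1 of the 4 WT microglia libraries stood apart from the others, in that its gap to the nearest library, divided by the range of the group, was over Dixon's 95% critical value for 4 samples, which chance exceeds in about 1 of 20 groups. Groups of 3 macrophage libraries were not tested this way. The ratio was 1.0 for Adora2a, C3, Cd44, Cfp, Cytip, Il2rb, Jchain, Ly6c2, Napsa, Pla2g7 and Rara, which were at 0 in the other 3 microglia libraries. With 3 libraries at 0 the ratio is 1.0 whatever the remaining value, so the rate of 1 in 20 does not apply to these genes. The rule for the largest folds required over 3 counts in a library of the lower group, which favors genes with 1 high library. The share of 24 in 205 is therefore not set against that rate. The library with the high value was mouse 2 for Adora2a, Cfp, Il2rb, Jchain, Pla2g7 and Rara, mouse 5 for C3 and Cd44, mouse 7 for Cytip and mouse 1 for Ly6c2 and Napsa. Among genes present in all 4 libraries, mouse 5 was the highest for Bhlhe41 (ratio 0.852), Csad (0.856), Mrc1 (0.833), P2ry6 (0.856), Timp2 (0.885) and S100a8 (0.946), where it had 228, 122, 100, 177, 1042 and 23.9 CPM. Mouse 5 was also the highest for Fgr (0.925), mouse 2 for Cox4i1 (0.9) and Plbd1 (0.948), and mouse 7 for Runx3 (0.871), of which Fgr, Plbd1 and Runx3 were at 0 in at least 1 other library. Mouse 1 was the lowest for Fcgr1 (0.855) and Hk2 (0.892), and mouse 7 was the lowest for Il6ra (0.846). Among summed lists, the ratio was 0.916 for the gate genes, where mouse 5 was the highest, and 0.959 for the identity transcription factors, where mouse 7 was the lowest.

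The difference between microglia and macrophages itself differed between the ages of WT mice for 12 genes, 11 of which are named here, as a test of the interaction (edgeR, adjusted p under 0.1). At 5–6 months minus 11–12 months, the difference of log2 fold changes was 8.56 for 4632427E13Rik, 6.71 for Efnb1 and 8.35 for Zfp839. It was -10.4 for Ace, -2.50 for C1qa, -3.49 for Gpr34, -7.94 for Mertk, -5.72 for Mgl2, -4.36 for P2ry12, -6.11 for Plxdc2 and -5.25 for Tns1. Between WT and CReCOM mice at 5–6 months 24 genes were called, and 11 of them are named here. The difference of log2 fold changes (WT minus CReCOM) was 6.71 for 4632427E13Rik, 5.72 for Adap2, 8.12 for Cdk5rap3, 9.28 for Coprs, 4.88 for Csad, 8.20 for Efnb1 and 6.47 for Zfp839, and it was -9.997 for 9430020K01Rik, -6.99 for Gem, -5.07 for Rpsa-ps10 and -6.91 for Scamp5. Both interactions use the same 7 young WT libraries, and 4632427E13Rik, Efnb1 and Zfp839 appear in both. None of these genes was called with the mouse as a block over all 28 libraries.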

How the results depend on the processing

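Of 1707 genes called between WT microglia and WT macrophages, counts in both directions stayed within 1.5 times of 848 higher in microglia and 859 higher in macrophages under DESeq2 (1116 and 1026), limma-trend (1266 and 1198), RLE factors, library sizes alone (804 and 912), upper quartile factors (959 and 753, with a median log2 fold change over all genes of 0.23 in place of 0.11), the other filters, an adjusted p under 0.05 (615 and 674), a test against a fold of 1.5 (666 and 658) and fits over the 14 WT or all 28 libraries. Leaving out 1 library gave 640 to 914 and 752 to 818. Counts fell past that bound with the mouse as a replicate block, to 405 and 458 over the 7 libraries and to 457 and 559 over all 28. The block over 7 libraries estimates the difference from numbers 1 and 2 alone, the numbers found in both cell types, and assumes that each is 1 mouse. Of the 205 genes named here, 30 lost their call with the block and 1 gained one, 1 gained one with DESeq2, 12 lost theirs without a filter, and 2 to 3 lost theirs in each fit without 1 library. None of the named calls changed direction.

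The age interaction (4 and 8 genes) gave 82 and 98 with DESeq2, 29 and 58 without a filter, 3 and 4 at an adjusted p under 0.05 and 0 and 0 with the replicate block. The genotype interaction (18 and 6 genes) gave 99 and 90, 51 and 56, 6 and 4, and 0 and 0 in the same order. Leaving out 1 library gave 2 to 20 and 3 to 22 genes for age and 2 to 46 and 3 to 15 for genotype. Of 332 medians of 37 gene lists under other factors or without 1 library, 8 changed sign. Without 1 library, the median of the glycolysis list was -0.36 to 0.51 (0.06 with all libraries) and below 0 without macrophage mouse 1 (-0.13) or 6 (-0.24) or microglia mouse 2 (-0.36) or 7 (-0.11). That of integrins, selectins and adhesion was -0.49 to 0.71 (0.07) and below 0 without macrophage mouse 2 (-0.15) or microglia mouse 5 (-0.49) or 7 (-0.30). That of the dendritic cell markers was -0.54 to 0.20 (-0.24) and above 0 without macrophage mouse 1 (0.20). The cause was not tested. At 3961593 to 5413100 counts a library, differences among genes under 3 counts were not detectable.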

Other observations

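The mitochondrial ribosomal RNAs stood opposite to the mitochondrial protein-coding genes. mt-Rnr1, the small ribosomal RNA, had 3208, 4155, 3901 and 5379.5 CPM in microglia and 5766, 9324 and 9461 CPM in macrophages (log2 fold change -0.92 ± 0.22, adjusted p = 0.014). mt-Rnr2, the large one, had 10583, 11213, 11680.2 and 14886 CPM in microglia and 17695, 25083 and 23412 CPM in macrophages (log2 fold change -0.81 ± 0.16, adjusted p = 0.0055). Every macrophage library was above every microglia library for both, while 5 mitochondrial protein-coding genes were higher in microglia. The summed share of all mitochondrial transcripts, 3.56 to 4.36% in microglia and 3.42 to 4.37% in macrophages, therefore overlapped although its parts differed.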
